A study of Mus musculus with 42 samples.

Results

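Transcript levels of 10 genes were followed in the liver of mice dosed with BkF, the combustion product benzo(k)fluoranthene, which is an agonist of the aryl hydrocarbon receptor (AhR). Adamdec1 and Cx3cr1 were chosen because their log2 ratios were higher in dosed livers of this same experiment, so their liver values are given as a description with no test. The other 8 genes, Clec4f, Timd4, Vsig4, Marco, Cd5l, C1qa, Mpeg1 and Lyz2, are macrophage markers chosen by name to ask whether they followed. The 10 genes have 13 probes among 55681 on the array and are 10 of 20660 genes named here. All 10 had a probe that passed the filter on dim probes in liver, as did 14508 named genes in all. Where a gene had more than 1 probe, the brightest in the tissue is the main probe.

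The animals were adult male Muta™Mouse, a transgenic strain carrying a bacterial reporter for mutation assays, aged about 11 weeks. All groups received olive oil by oral gavage for 28 days, alone in the vehicle group (D0, 0 mg/kg-bw/day) or with BkF at 25 (D1), 50 (D2) or 100 (D3) mg/kg-bw/day, and tissues were taken 72 hours after the last dose. Liver was measured in 4 D0, 2 D1, 3 D2 and 4 D3 mice, lung in 4, 3, 4 and 4, and forestomach in 4, 3, 4 and 3, which makes 42 arrays from 15 mice. Each array set 1 tissue RNA (red) against a common reference RNA from mouse cell lines (green). Values are log2 ratios of sample over reference after loess normalisation within the array, without background subtraction. This compresses the ratios of dim probes, and a level cannot be compared between probes.

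Kupffer cells are the resident macrophages of the liver sinusoids, where they clear particles, bacteria and aged red cells from portal blood. They are marked by the lectin Clec4f, the phosphatidylserine receptor Timd4, the complement receptor Vsig4, the scavenger receptor Marco and the secreted protein Cd5l. C1qa, Mpeg1 and Lyz2 are shared by macrophages of many tissues. Adamdec1 is a secreted metalloprotease of the ADAM family known from gut macrophages and stroma, and Cx3cr1 is the receptor of the chemokine fractalkine, carried by monocytes and by macrophages derived from them. In whole liver RNA, fewer cells of a type and less RNA per cell cannot be told apart.

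Promoter sequences are shown for Cx3cr1, which was higher in dosed livers, and for Marco, the marker with the largest positive difference, and Clec4f, a marker close to absent outside liver. They were taken from RefSeq on build GRCm38.p6, as 250 bases before to 50 after the gene start, for 8 of the 10 genes (Adamdec1 and C1qa are named only). Capitals mark GCGTG, the core of the AhR binding motif, and GAGGAA, the PU box of the myeloid factor PU.1, on either strand.
Cx3cr1, chr9:120068247-120068546, minus strand: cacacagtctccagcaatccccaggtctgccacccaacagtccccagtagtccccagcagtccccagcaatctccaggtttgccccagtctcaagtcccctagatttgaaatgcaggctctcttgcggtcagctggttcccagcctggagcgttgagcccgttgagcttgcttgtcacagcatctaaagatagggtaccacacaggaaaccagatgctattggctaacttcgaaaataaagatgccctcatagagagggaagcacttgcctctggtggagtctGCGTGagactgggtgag
Marco, chr1:120504975-120505274, minus strand: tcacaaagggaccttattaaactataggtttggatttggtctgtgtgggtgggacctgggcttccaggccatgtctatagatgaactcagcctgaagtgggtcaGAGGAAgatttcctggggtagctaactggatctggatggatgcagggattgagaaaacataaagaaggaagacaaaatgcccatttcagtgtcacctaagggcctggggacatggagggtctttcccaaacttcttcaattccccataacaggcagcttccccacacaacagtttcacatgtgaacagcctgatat
Clec4f, chr6:83656067-83656366, minus strand: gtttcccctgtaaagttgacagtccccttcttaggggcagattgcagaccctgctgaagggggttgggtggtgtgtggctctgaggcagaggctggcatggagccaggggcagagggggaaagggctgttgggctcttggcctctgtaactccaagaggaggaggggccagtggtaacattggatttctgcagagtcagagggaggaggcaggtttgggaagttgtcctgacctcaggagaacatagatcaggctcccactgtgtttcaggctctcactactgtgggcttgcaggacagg
Of the 8 promoters, 1 held GCGTG, that of Cx3cr1, at positions 284 to 288, against 32.4% of 32851 RefSeq promoters of this length. GAGGAA was found in 3, those of Vsig4, Marco and Cd5l, against 28.3% of all. These are matches of letters and not sites of binding.

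The main Adamdec1 probe had log2 ratios of 1.66, 1.58, 1.53 and 1.66 in D0 livers 1, 2, 3 and 4. The D1 livers had 2.97 and 3.16, the D2 livers 3.40, 2.97 and 4.12, and the D3 livers 3.73, 4.25, 3.41 and 4.20. Every dosed liver lay above every vehicle liver, as the choice of the gene implies. The group means were 1.61 ± 0.06 (SD, n = 4) in D0 and 3.90 ± 0.40 (SD, n = 4) in D3. The difference from D0 was 1.46 at D1, 1.89 at D2 and 2.29 at D3 on the log2 scale, the last a 4.89-fold difference. The second Adamdec1 probe, well above background in 9 of 13 livers, ran from -0.05 to 0.43 in D0, was 0.45 and 0.81 in D1 and 0.80, 0.32 and 0.70 in D2, and ran from 0.69 to 0.96 in D3. On that probe D2 mouse 12 overlapped the vehicle livers. Within the first liver slide the D3 difference of Adamdec1 was 2.37 and within the other 2.21.

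Cx3cr1 had log2 ratios of 0.50, 0.51, 0.07 and 0.96 in D0 livers. They were 1.26 and 2.05 in D1, 1.39, 2.44 and 1.52 in D2, and 2.62, 2.22, 1.87 and 2.31 in D3. Again no dosed liver overlapped the vehicle livers. The group means were 0.51 ± 0.36 (SD, n = 4) in D0 and 2.25 ± 0.31 (SD, n = 4) in D3. The differences from D0 were 1.14, 1.27 and 1.74, the last a 3.34-fold difference, and the D3 difference was 1.91 within the first liver slide and 1.58 within the other. The second Cx3cr1 probe was well above background in 4 of 13 livers, differed by 0.41 at D3 and overlapped at D2, with 0.11, 0.55 and 0.06 against up to 0.20 in D0. With the scanner software's own background-subtracted ratios, the D3 difference was 2.55 for Adamdec1 and 2.68 for Cx3cr1, and as a mean over both probes it was 1.48 and 1.07.

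**Figure D1:**
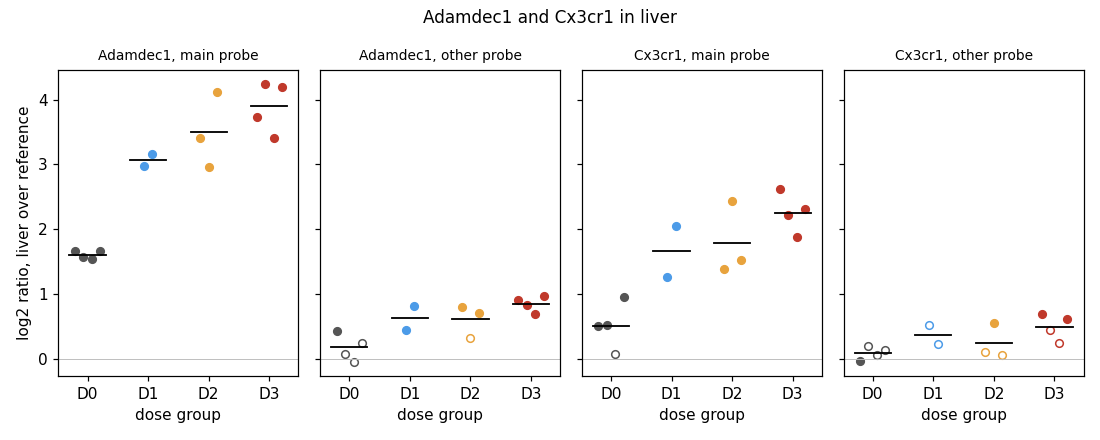
Log2 ratio of liver over reference (vertical axis) by dose group for both probes of Adamdec1 and of Cx3cr1; each point is 1 mouse, an open point was not well above background, and the bar is the group mean. On the main probes the D3 livers sit between 3.41 and 4.25 for Adamdec1 and between 1.87 and 2.62 for Cx3cr1, above all vehicle livers.

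None of the Kupffer cell and macrophage markers passed the test in dosed livers. Of the 8 markers, 0 were called at D3 by limma (Benjamini-Hochberg adjusted p at most 0.05 and at least 1.5-fold), where 0.0525% of all 30460 probes were called. No marker separated D3 from D0 livers without overlap, against 5.96% of probes, and none separated all dosed from vehicle livers, against 1.09%. At D2 0 of 8 were called, against 0.0427% of probes, and at D1 0 of 8, against 0%. Over all doses 0 of 8 were called, against 0.0788%. At an unadjusted p under 0.05 there were 1 of 8 markers at D1 (Mpeg1, lower), 2 at D2 (Marco, higher, and Cd5l, lower), 1 at D3 (Marco) and 2 over all doses (Marco and Cd5l), beside 468, 3272, 2371 and 2151 of the 30460 probes. These comparisons share the 4 vehicle livers. A p that misses the threshold does not show equal levels, and the intervals below give what the arrays allow.

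Clec4f, the most Kupffer-restricted of the markers, had log2 ratios of 5.43, 6.18, 6.33 and 6.30 in D0 and of 5.77, 5.70, 5.43 and 6.20 in D3. The groups overlapped, with a difference of -0.29 (95% interval -0.99 to 0.42, limma adjusted p 0.88). Vsig4 had 5.76, 6.11, 6.09 and 6.18 in D0 against 5.22, 5.75, 5.90 and 5.68 in D3, a difference of -0.39 (-1.12 to 0.33, limma adjusted p 0.82). Timd4, which marks long-lived resident cells, was dim, with 0.82 to 1.12 in D0 and 0.86 to 1.55 in D3. Its difference was 0.23 (-0.21 to 0.67, limma adjusted p 0.82).

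At the lower doses these 3 markers also spread around the vehicle livers. Clec4f was 5.65 and 6.08 in D1 and 6.37, 4.51 and 5.60 in D2, with a D2 difference of -0.57 (-1.33 to 0.20, limma adjusted p 0.59). Vsig4 was 4.97 and 5.83 in D1 and 5.97, 4.38 and 6.29 in D2, with a D2 difference of -0.49 (-1.27 to 0.30, limma adjusted p 0.66). Timd4 was 0.94 and 0.92 in D1 and 1.42, 0.45 and 1.44 in D2, with a D2 difference of 0.14 (-0.34 to 0.61, limma adjusted p 0.86). In D2 the low value of each came from mouse 12.

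Cd5l and Marco had differences from D0 of opposite sign at D2 and D3, and both were below D0 at D1, without passing the test. Cd5l had 5.92, 6.27, 6.33 and 6.75 in D0, 4.95 and 5.47 in D1, 6.11, 2.64 and 5.71 in D2, and 5.29, 5.09, 5.29 and 6.02 in D3. Its difference was -1.49 at D2 (-2.81 to -0.18, limma adjusted p 0.41), -0.89 at D3 (-2.11 to 0.33, limma adjusted p 0.73) and -1.17 over all doses (-2.21 to -0.11, limma adjusted p 0.65). Marco had 1.99, 2.56, 1.85 and 2.30 in D0, 1.77 and 1.65 in D1, 2.87, 4.64 and 3.77 in D2, and 2.78, 3.46, 2.45 and 2.85 in D3. It lay above all vehicle livers in 3 of 3 D2 livers, with a difference of 1.58 (0.85 to 2.31, limma adjusted p 0.16), and was the 1 marker of 8 without overlap at D2, against 9.32% of probes (4.53% higher). At D3 the difference was 0.71 (0.03 to 1.38, limma adjusted p 0.62). Without D2 mouse 11 the D2 difference of Marco was 2.03 and was called (limma adjusted p 0.023), the only fit in which a marker was called in liver. Of the cell type and pathway lists, 5 lay on 1 side of 0 at D2, with 0 called. The 18 general macrophage genes (median 0.29), 8 lipid-associated macrophage genes (median 0.47), 7 MHC class II genes (median 1.02) and 7 neutrophil genes (median 1.65) were above 0, and 3 erythroid genes (median -0.29) were below. D2 mouse 13 had the highest mean over the neutrophil genes. At D1 Marco was below the vehicle livers. There 12 of the 18 general macrophage genes (median -0.07) and 12 of 14 Kupffer cell genes (median -0.31) were below 0. The median over all probes was -0.005. These lists are not separate from the markers. The general list holds C1qa, Mpeg1 and Lyz2, and the Kupffer cell list holds Marco, Clec4f, Timd4, Vsig4 and Cd5l. All 8 had differences below 0 at D1. The part of the other genes of the lists in the Marco values was not tested.

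The markers shared with macrophages of other tissues overlapped between D0 and D3. At D3 C1qa, a chain of complement component C1q, differed by 0.32 (-0.14 to 0.78, limma adjusted p 0.74), with 4.27 to 4.76 in D0 and 4.57 to 5.36 in D3. Mpeg1, the pore-forming protein perforin-2, had 1.15, 1.23, 1.06 and 1.505 in D0 and 1.00, 1.09, 1.21 and 1.32 in D3 on its main probe, a difference of -0.08 (-0.44 to 0.28, limma adjusted p 0.94). Lyz2, lysozyme, was 0.20, 0.34 and 0.50 in D3 mice 16, 19 and 20 and 2.75 in D3 mouse 17, against 0.39 to 0.68 in D0. Its D3 difference was 0.41 (limma adjusted p 0.86) with that liver and -0.19 without it (limma adjusted p 0.86). In the 2 D1 livers 4 of the 8 markers, Marco, Cd5l, Mpeg1 and Lyz2, lay below all vehicle livers, where 11.2% of probes did not overlap (5.29% lower), and none was called.

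**Figure D2:**
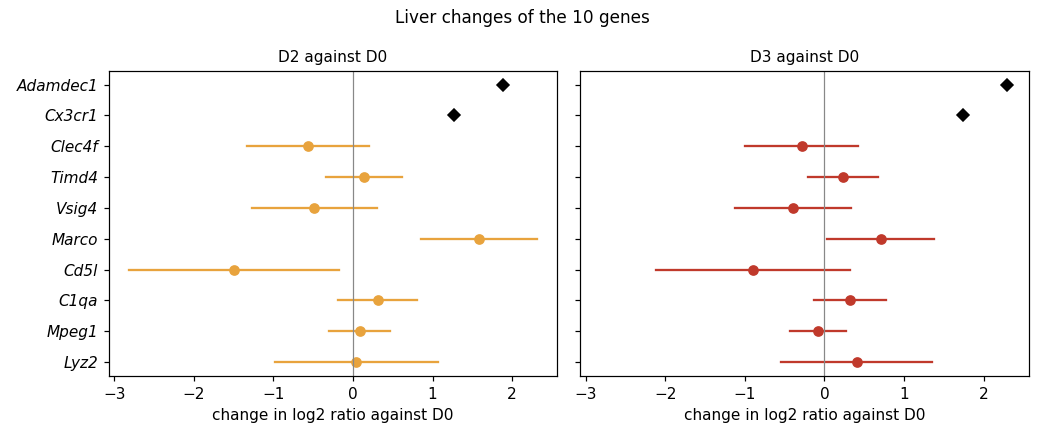
Difference in log2 ratio from D0 (horizontal axis) for the 10 genes at D2 and at D3; circles with bars are the 8 markers with limma's 95% interval, and diamonds are Adamdec1 and Cx3cr1, shown as values without an interval because they were chosen on these livers. At D3 the marker differences run from -0.89 to 0.71, against 2.29 for Adamdec1 and 1.74 for Cx3cr1.

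Single livers stood apart and touch these values. D2 mouse 12 had the lowest Clec4f (4.51), Vsig4 (4.38), Cd5l (2.64) and Timd4 (0.45, not well above background) of the 13 livers and the highest Marco. Without it the D2 differences were -0.08 for Clec4f, 0.10 for Vsig4, -0.40 for Cd5l and 1.14 for Marco, and 0 of 8 markers were called. D3 mouse 17 carried skeletal muscle transcripts, with a mean log2 ratio of 3.75 over 8 muscle genes against -0.67 to -0.39 in the other 12 livers. Without it the D3 difference was 2.17 for Adamdec1 and 1.75 for Cx3cr1. D2 mouse 13 had the highest mean over 8 neutrophil genes, 2.64, against -0.10 to 0.88 in the others. The part of these transcripts in the members' values was not tested. Vehicle livers were all in the first array column and dose increased with the column on all but 1 array, so dose and column largely cannot be told apart. The same limit holds in the other tissues. In lung each dose group had a column of its own, and in forestomach only D0 mouse 2 departed from this. The 10 spike-in RNAs differed from D0 in liver by -0.29 to -0.20 at D1, -0.88 to -0.58 at D2 and -0.73 to -0.52 at D3, and in lung by 0.27 to 0.49 at D3. Their part in the members' values was not tested.

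**Figure D3:**
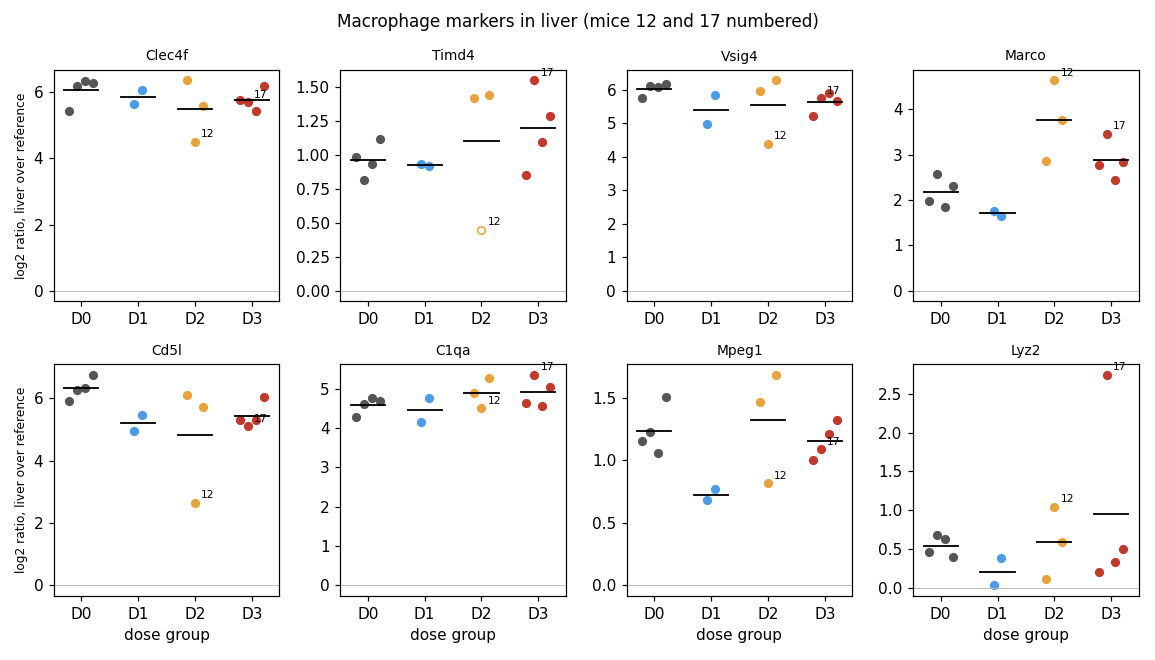
Log2 ratio of liver over reference (vertical axes, 1 scale per gene) by dose group for the 8 markers; each point is 1 mouse, an open point was not well above background, bars are group means, and mice 12 and 17 are numbered. D2 mouse 12 is lowest for Clec4f, Vsig4, Cd5l and Timd4 and highest for Marco, and D3 mouse 17 stands at 2.75 for Lyz2.

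Wider gene lists were read in the same liver fit, and of each the brightest genes are named. Of 15 Kupffer cell genes, which include 5 of the markers, 14 passed the filter and 0 were called at D3, with a median difference of -0.23 (-0.22 without D3 mouse 17) and 9 below 0, against a median of -0.01 over all probes. Id3, a transcriptional regulator that Kupffer cells need, differed by -0.23 (limma adjusted p 0.88), Nr1h3, the oxysterol receptor LXR alpha, by -0.11 (0.82) and Slc40a1, the iron exporter ferroportin, by -0.30 (0.60). Folr2, a folate receptor named after its value was seen, had the lowest value of the list at -1.33 (0.61).

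Of 18 general macrophage genes, which include the markers C1qa, Mpeg1 and Lyz2, 0 were called at D3, with a median of 0.37 and 15 above 0. The mean over the list was 1.25 in D3 mouse 17 and 0.53 to 0.62 in the other D3 livers, against 0.29 to 0.58 in D0, and without mouse 17 the median difference was 0.09. Csf1r, the receptor of the macrophage growth factor, differed by 0.54 (limma adjusted p 0.68) and Fcer1g, an adaptor of Fc receptors, by 0.37 (0.78). Csf1, the ligand of Csf1r, differed by 0.07 (0.92) and the chemokines Ccl5 and Ccl2 by 0.23 (0.89) and -0.09 (0.94), within a list of growth factors and chemokines with a median of 0.18 over 8 genes. Monocyte genes had a median of 0.23 over 10, with Nr4a1, which monocytes of the patrolling kind need, at -0.11 (0.88) and Plac8 at 0.40 (0.64). Dendritic cell genes had a median of 0.39 over 10, with the transcription factors Irf8 at 0.68 (0.33) and Batf3 at 0.30 (0.67). Lipid-associated macrophage genes had a median of 0.23 over 8, with the fatty acid binding protein Fabp5 at 1.32 (0.13) and Lgals3, galectin-3, at 0.36 (0.60). Without D3 mouse 17 these medians were 0.07 for growth factors and chemokines, 0.11 for monocyte, 0.24 for dendritic cell and 0.09 for lipid-associated genes. None of these lists had a call. Hepatocyte genes lay below 0 in 8 of 8, with a median of -0.38 (-0.32 without D3 mouse 17) and 0 called, among them Alb, albumin, at -0.38 (0.60) and the urea cycle enzyme Ass1 at -0.24 (0.65).

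The list with a call was MHC class II, the genes of antigen presentation. Of its 8 genes 7 passed the filter and 1, Cd74, the invariant chain, was called higher at D3, as were 0.0361% of probes. Cd74 lay between -0.95 and -0.58 in D0 and between 0.78 and 1.52 in D3, without overlap, and rose by 1.94 (limma adjusted p 0.043). That call was kept in 2 of 13 fits that left out 1 liver, with adjusted p between 0.0019 and 0.24, and was lost without D3 mouse 17 (0.16) and with the slide as a block (0.077). The class II chains H2-Ab1 and H2-Eb1 differed by 1.096 (limma adjusted p 0.11) and 1.08 (0.18). Named after their values were seen, H2-Aa differed by 1.92 (0.13) and H2-DMb1 by 1.37 (0.13), while Ciita, the transactivator of the class, differed by -0.10. The median over the 7 was 1.096, and 1.05 without D3 mouse 17.

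Over the 13 livers, the 8 genes most like Adamdec1 by Pearson's r among 14478 were Amz1 (0.98), Cd74 (0.96), Hic1 (0.95), Clec4n (0.94), H2-Aa (0.94), Tcf4 (0.93), Adgrg3 (0.92) and Dlgap4 (0.92). With each group's mean taken off these ran from 0.43 for Tcf4 to 0.90 for H2-Aa. Those most like Cx3cr1 were Ecm2 (0.94), Armc5 (0.92), Id4 (0.92), Mefv (0.89), Zfp941 (0.88), Tmem62 (0.87), Abcf1 (0.87) and Tcf4 (0.87), which ran from 0.31 for Tcf4 to 0.83 for Tmem62 with group means taken off. Adamdec1 and Cx3cr1 correlated at 0.83 with each other, and at -0.15 once each group's mean was taken off. Among the markers C1qa was nearest to Adamdec1 (0.58) and Marco to Cx3cr1 (0.52), and Cd5l was lowest for both (-0.32 and -0.58). With each group's mean taken off, the order changed: all 8 markers were above 0 with Adamdec1, from 0.02 for Marco to 0.80 for C1qa, with Cd5l at 0.58, and the lowest with Cx3cr1 was Timd4 at -0.53. The 13 points share the 4 dose groups, and these are descriptions with no test.

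In lung neither Adamdec1 nor Cx3cr1 passed the test. The Adamdec1 range was 1.94 to 3.49 in D0 and 2.85 to 3.16 in D3, a difference of 0.17 (-0.74 to 1.07, limma adjusted p 0.96). Cx3cr1 ran from 2.11 to 3.63 in D0 and from 2.27 to 3.50 in D3, with a difference of -0.29 (-1.15 to 0.58, limma adjusted p 0.93). No member was called at D3 (0.0336% of 32697 probes) or over all doses (0.0214%). Clec4f was well above background in 1 of 15 lungs and was not tested there.

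A single lung stood apart in the markers. D2 mouse 12 had 5.97 for Timd4, 6.39 for Vsig4, 5.07 for Cd5l, 6.49 for Marco and 4.94 for C1qa, while the other D2 lungs had at most 0.39 for Timd4 and 0.31 for Vsig4. In the same lung 8 skeletal muscle genes had a mean of 4.71, against -0.65 to -0.25 in the other 14, and 6 genes of serous cavity macrophages and mesothelium, a list chosen after the values were seen, had 1.83, against -0.70 to 0.81. Vehicle mouse 4 followed for Cd5l (3.23), Vsig4 (2.35) and Timd4 (1.33) and had the 0.81. Without D2 mouse 12, the difference over all doses was -0.89 for Cd5l and -0.83 for Vsig4, with 0 members called. The part of other tissue in these values was not tested.

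**Figure D4:**
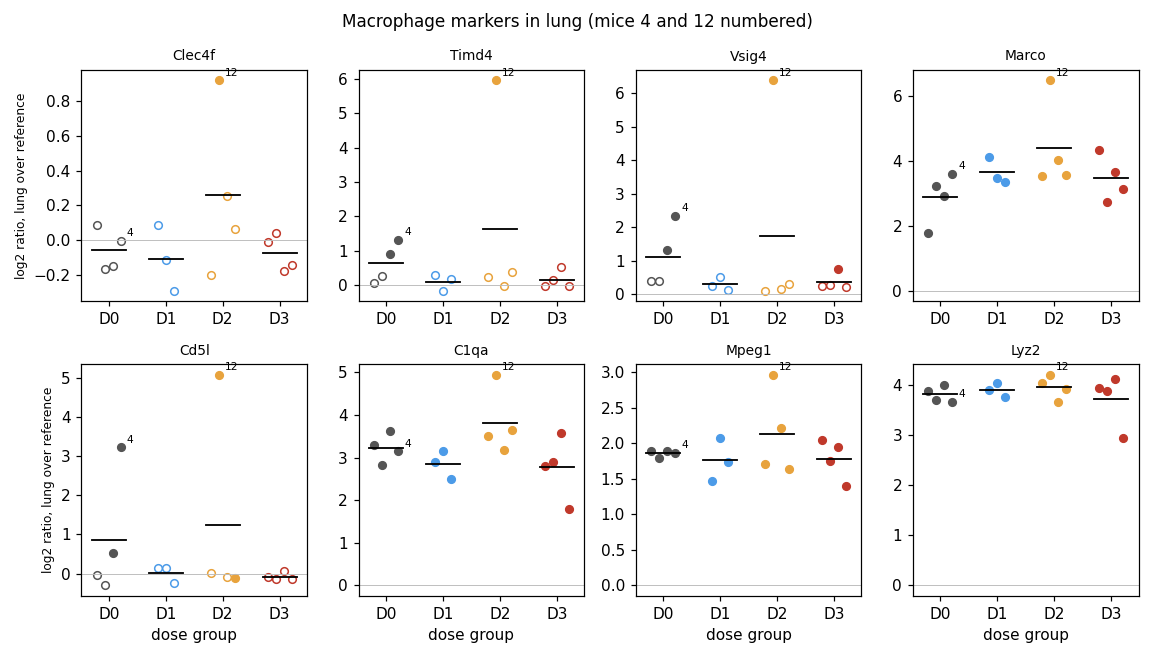
Log2 ratio of lung over reference (vertical axes, 1 scale per gene) by dose group for the 8 markers; each point is 1 mouse, an open point was not well above background, bars are group means, and mice 4 and 12 are numbered. D2 mouse 12 is the highest point for all 8 markers, at 6.39 for Vsig4 and 5.97 for Timd4.

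In forestomach Adamdec1 fell into a low and a high range within D0, D2 and D3. It was between 0.24 and 0.90 in 5 forestomachs (D0 mice 1 and 4, D2 mouse 11, D3 mice 16 and 20) and between 3.17 and 6.92 in the other 9. The mean over 8 genes of glandular stomach, a list chosen after the values were seen, was 0.60 to 1.90 in the same 5 and 4.87 to 6.05 in the 9. In liver the mean over the same list was 0.02 to 0.06 in D0, 0.09 to 0.18 in D1, 0.05 to 0.19 in D2 and 0.20, 0.66, 0.04 and 0.45 in D3 mice 16, 17, 19 and 20, with at most 3 of its 8 genes well above background in any liver. The D3 livers ranked for Adamdec1 as they did for the list, from mouse 19 (3.41) to mouse 17 (4.25). The part of stomach tissue in the liver values of Adamdec1 was not tested. The D3 difference of Adamdec1 in forestomach was 0.43 (-3.17 to 4.02, limma adjusted p 1), and 0.93 with that mean as a covariate (0.99). No member was called at D3 (0% of 25305 probes, 561 at an unadjusted p under 0.05) or over all doses (0%, 2050 at an unadjusted p under 0.05). Clec4f and Timd4 were well above background in 0 of 14 forestomachs and Cd5l in 1.

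**Figure D5:**
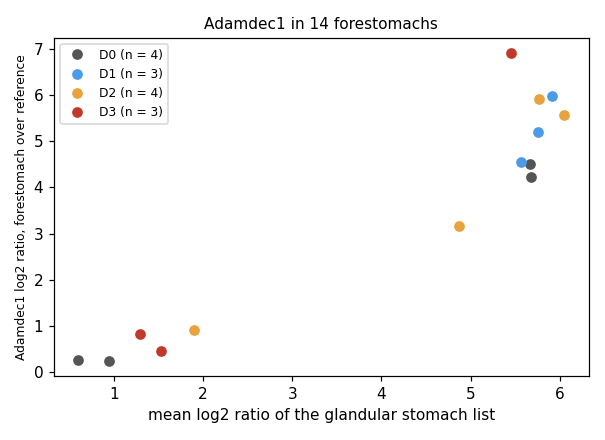
Adamdec1 log2 ratio of forestomach over reference (vertical axis) against the mean log2 ratio of the glandular stomach list (horizontal axis); each point is 1 mouse, coloured by dose group. The 5 arrays with Adamdec1 of at most 0.90 have a list mean of at most 1.90, and the other 9 have at least 4.87.

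The vehicle tissues bear on the labels of the markers. A marker that passed the filter only through liver is given by its values, with no test. Of the 7 markers kept in both liver and lung, 5 differed between the vehicle tissues, and of the 5 kept in both liver and forestomach 4 did, where 40.8% and 37.5% of probes did. Clec4f was well above background in 4 of 4 vehicle livers and in 0 of 4 vehicle lungs and 0 of 4 vehicle forestomachs. In the red channel alone, normalised between arrays, it averaged 12.01 in liver against a bound of 5.87 in lung and 6.03 in forestomach, so on that scale it was at least 70.6-fold and 63.4-fold higher in liver. On the ratio scale, which holds the reference channel too, the difference was 6.12 and 6.01. The lung and forestomach values were not well above background, so no fold is read from that scale. The bounds hold for the red channel alone.

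Vsig4 was higher in vehicle liver than in lung by 4.92 and than in forestomach by 5.49 on the log2 scale, and was well above background in 2 of 4 arrays of each of these. Cd5l was higher than in lung by 5.46, with 2 of 4 lungs well above background, and by 6.25 without vehicle lung 4. Lyz2 had a liver minus lung difference of -3.27 (limma adjusted p 6.3e-11) and Marco of -0.71 (limma adjusted p 0.20). Mpeg1 had -0.62 (limma adjusted p 0.018), a call that was lost without vehicle liver 3 (0.051) and with the scanner ratios (0.10), and its second probe, well above background in the same arrays, differed by -0.006 (0.98). Liver arrays were on slides of their own and read by another software version, so tissue and slide cannot be told apart.

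The D3 difference itself was compared between tissues in 1 fit of all 42 arrays. By limma 0 of the 7 markers kept in both tissues differed between liver and lung (0.027% of probes did) and 0 of 5 between liver and forestomach (0.00605%), with 0 at an unadjusted p under 0.05 in each. For C1qa liver minus lung was 0.77 (-0.34 to 1.88; 0.004 with the scanner ratios, 0.45 without D3 lung 20) and for Marco 0.12 (-1.21 to 1.46), each at a limma adjusted p of 1. For Adamdec1 and Cx3cr1, given without a test, liver minus lung was 2.12 and 2.03 and liver minus forestomach 1.86 and 1.31.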

How the data were processed

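The authors hybridised tissue RNA labelled with Cy5 against a Cy3-labelled common reference on 2-colour Agilent arrays, with no dye swap, and deposited the scanner output of each array: the intensity of each spot as red and green median signals, and the scanner software's log10 ratio, red over green (version 11.0.1.1 for liver, 10.7.3.1 for lung and forestomach). They also deposited a table of log2 ratios per probe, of which liver columns could not be matched to probes and were not used. Here log2 ratios of the median signals were loess-normalised within each array in limma (version 3.58.1, R 4.3.3), without background subtraction, control spots were given no weight in loess and left out, flagged outlier spots were left out, and spots of 1 probe were averaged. Of 55681 probes, 48.9% were named through RefSeq accessions. Probes well above background on at least 2 liver, 3 lung or 3 forestomach arrays were kept (30460, 32697 and 25305).

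The methods of the study name a MAANOVA fit, for which limma was used with the same thresholds, an adjusted p of at most 0.05 and at least 1.5-fold. Each tissue was fitted with its 4 dose groups, and the tissues were compared in a fit of all 42 arrays. P-values were adjusted over all probes tested. The genes and lists were chosen with earlier results of these data known. Genes named are the 10 members, of each list those called in liver or otherwise from its 3 brightest, and the 8 genes most correlated with Adamdec1 and with Cx3cr1. Folr2, H2-Aa, H2-DMb1 and Ciita were named after their values were seen. Alternatives were normexp background correction, the scanner ratios, scaling between arrays, no filter, the slide as a block, values within slides, fits of 2 groups, means over probes and each array left out. The fit was also run on simulated data with independent noise for each probe. These held no livers that stand apart and no effect of array column, so they do not bear on either. Same-numbered samples of different tissues came from the same mouse per the labels, and their deviations from group means correlated at -0.20 to 0.19 between liver and lung (median 0.09, 13 mice) and at -0.21 to 0.10 between liver and forestomach (median 0.03, 12 mice). The number of arrays limits the precision.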

Additional observations from a re-analysis of the deposited data

Results flagged for a closer look

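Of 70 sets of 4 values tested, each of 1 gene in 1 tissue and dose group, 10 had a sample far from the others. Chance would give about 3.5 if the sets were independent. They share the same arrays, and 4 of the 10 come from 1 lung, so the 2 counts cannot be set against each other. In lung D2 mouse 12 stood apart for 4 markers: Timd4 at 5.97 against 0.39 for the nearest D2 lung, Vsig4 at 6.39 against 0.31, Cd5l at 5.07 against 0.02 and Marco at 6.49 against 4.03. D3 mouse 19 had 0.76 for Vsig4 in lung, against 0.29. In liver D3 mouse 17 had 2.75 for Lyz2, against 0.50, and this is the liver with skeletal muscle transcripts. In forestomach D2 mouse 15 had 1.60 for Cd5l against 0.08, D2 mouse 13 had 2.41 for Marco against 0.71, D0 mouse 3 had -0.15 for Lyz2 against 0.01, and D0 mouse 1 had -0.25 for Mpeg1 against -0.88. All are log2 ratios, and their part in the results was not tested beyond the fits without each array.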

How the results depend on the processing

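The 0 calls among the 8 markers in liver at D1, D2, D3 and over all doses held under each alternative run, apart from Marco at D2 without D2 mouse 11. The count of all probes called, 13 at D2, 16 at D3 and 24 over all doses, was less stable. It was 9 at D3 and 10 over all doses with the scanner ratios, 1, 10 and 11 with the slide as a block, 5, 9 and 14 with scaling between arrays, 2, 9 and 14 with means over probes, and 4 at D2, 46 at D3 and 2 at D1 in fits of 2 groups. Leaving out 1 liver gave 0 to 5 at D1, 0 to 157 at D2, 2 to 46 at D3 and 0 to 44 over all doses, with 0 to 1 marker called at D2. The 157 came without D2 mouse 11, the 46 without D2 mouse 12. In lung, against 11 at D3 and 7 over all doses, the counts were 3 and 3 with the scanner ratios, 26 and 12 with the slide as a block, and 3 to 34 and 4 to 14 with 1 lung left out. The Cd74 call of the MHC class II list at D3 became 0 with means over probes and without D3 mouse 17. Over all doses 1 gene of that list was also called higher, where 0.0788% of probes were called in either direction. That count stayed at 1 with means over probes and became 0 without D3 mouse 17.

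With the mouse as a random block (the replicate block, since tissues came from the same mice; correlation 0.061 in the fit with lung and 0.064 with forestomach), 20 probes against 10 differed in effect between liver and lung and 4 against 2 between liver and forestomach, and no member's call changed. Leaving out 1 array gave 5 to 19 and 2 to 5. For the vehicle levels, the Mpeg1 call against lung was lost with the scanner ratios and without vehicle liver 3.

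Signs of differences that missed the test changed as follows, and the cause was not tested. With the scanner ratios, liver at D2 had -0.49 for Timd4, -0.34 for C1qa, -0.002 for Mpeg1 and -0.11 for Lyz2, liver at D3 -0.015 for Timd4 and -0.18 for C1qa, and all doses -0.22 for Timd4, -0.23 for C1qa and -0.12 for Lyz2. In lung they gave -0.033 for Adamdec1 and 0.03 for Mpeg1 at D3 and -0.005 for Adamdec1 over all doses. Between tissues they gave -0.12 for Marco against lung, -0.051 for Timd4, -1.05 for Marco and -0.23 for Lyz2 against forestomach, and a vehicle level of 0.085 for Marco against lung. The slide as a block gave -0.005 for Lyz2 in liver at D2 and -0.42 for Adamdec1 in forestomach at D3, means over probes 0.052 for Mpeg1 at D3, and normexp 0.011 for Timd4 and 0.003 for C1qa in lung over all doses. Within single slides Mpeg1 was -0.049 and Vsig4 0.16 at D2, and Lyz2 -0.091 at D3. With 1 array left out the sign also changed for the following. For liver D2 it ran from -0.029 to 0.47 for Timd4, -0.86 to 0.10 for Vsig4, -0.10 to 0.34 for Mpeg1 and -0.18 to 0.28 for Lyz2. For liver D3 it ran from -0.14 to 0.01 for Mpeg1 and -0.19 to 0.66 for Lyz2. For liver all doses it ran from -0.16 to 0.12 for Lyz2. For lung D3 it ran from -0.13 to 0.39 for Adamdec1, -0.16 to 0.056 for Mpeg1 and -0.23 to 0.17 for Lyz2. For lung all doses it ran from -0.28 to 0.24 for Adamdec1, -0.49 to 0.22 for Timd4, -0.83 to 0.10 for Vsig4, -0.89 to 0.33 for Cd5l, -0.21 to 0.059 for C1qa, -0.059 to 0.089 for Mpeg1 and -0.001 to 0.14 for Lyz2. For forestomach D3 it ran from -1.67 to 1.56 for Adamdec1, -0.034 to 0.72 for Cx3cr1 and -0.11 to 0.55 for Vsig4. For forestomach all doses it ran from -0.049 to 0.47 for C1qa. For the D3 difference of liver minus lung it ran from -0.058 to 0.59 for Vsig4, -0.12 to 0.49 for Marco, -0.76 to 0.42 for Cd5l, -0.14 to 0.084 for Mpeg1 and -0.10 to 0.75 for Lyz2. For the D3 difference of liver minus forestomach it ran from -0.62 to 0.068 for C1qa and -0.60 to 0.25 for Lyz2.

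The planned fit of the deposited log2 table was not run for liver, as its columns could not be matched to probes. D1 liver has 2 mice. Timd4 and the second probes of Adamdec1 and Cx3cr1 lie near background, where ratios are compressed.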

Other observations

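In the deposited table of log2 ratios, the columns of the 13 livers correlated with the same arrays' scanner values at -0.003 to 0 when matched by probe identifier, while lung columns correlated at 0.997 to 0.999 and forestomach columns at 0.995 to 0.999. The liver columns were therefore not used.

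The other cell type lists had 0 genes called at D3 in liver. The median difference from D0 was 0.28 over 8 stellate cell genes, all above 0, and -0.10 over 8 genes of sinusoidal endothelium. It was 0.38 over 5 B and plasma cell genes, 0.07 over 7 T and NK cell genes and 0.03 over 7 neutrophil genes (1.65 at D2). It was 0.30 over 9 alveolar macrophage genes, which include the marker Marco. It was -0.003 over 6 cholangiocyte genes, -0.32 over 3 erythroid genes and 1.30 over 5 skeletal muscle genes, the last with D3 mouse 17 in the group (-0.13 without it). Without that liver the B and plasma cell median was 0.14, the stellate cell median 0.20, the T and NK cell median 0.12 and the neutrophil median -0.03. Of the lists chosen after the values were seen, glandular stomach had 2 genes kept in liver, Tff2 at 1.89 (limma adjusted p 0.53) and Muc5ac at 0.28 (0.64), and the 6 genes of serous cavity macrophages and mesothelium had a median of 0.46 at D2 and 0.54 at D3, with 0 called. The mean over those 6 was 0.08 in D3 mouse 17, and -1.21 to -0.25 in the other 12 livers.

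Among the brightest genes of these lists, the D3 differences were 1.17 for Col3a1 (limma adjusted p 0.46) and 1.11 for Col1a1 (0.69), collagens of stellate cells, -0.20 for Kdr (0.74), an endothelial growth factor receptor, -0.25 for Jchain (0.74), the joining chain of secreted antibodies, and 1.77 for S100a9 (0.58), a neutrophil protein.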
